A study of Rattus norvegicus with 9 samples.

Results

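The unfolded protein response and the integrated stress response were followed through 10 genes: Ern1, Eif2ak3, Atf6, Xbp1, Atf4, Ddit3, Herpud1, Asns, Trib3 and Chac1. They were chosen by name, and every gene probe of the array whose gene name equals a listed gene was taken. This gave 11 probes among 30367 gene probes, and 10 of the 26115 gene names on the array. Atf6 had 2 probes and each other gene 1.

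Each array measured the RNA of 1 rat kidney with a 1-colour Agilent array, on which the Cy3-labelled cRNA of the kidney is hybridised and the brightness of each spot is read. In a model of donation after circulatory death, kidneys of Fisher F344 rats underwent 20 min. of warm ischaemia and were then removed. NP kidneys (n = 5) were not perfused. MSC kidneys (n = 4) were perfused for 4 hrs at 4°C with Belzer solution (BS) supplemented with 3000000 mesenchymal stromal cells (MSC), which came from the bone marrow of Sprague Dawley rats transgenic for EGFP. The paper arrayed 5 MSC kidneys and left out 1 for poor quality after hybridisation. The age of the rats is not given in the sources used here. All kidneys shared the warm ischaemia, and the groups differ in the cold perfusion as well as in the MSC, so that the effects of perfusion and of the cells cannot be told apart. The labels are divided on the NP kidneys: the treatment field calls them not perfused, while the titles name a perfusion with BS.

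Both groups lay on 2 slides. NP replicates 1, 2 and 3 and MSC replicates 1 and 2 were on slide 1, and the other 4 arrays on slide 2. Between 65.6% and 74.3% of the gene spots of an array were well above background, and no gene spot was saturated. Of the kidney markers, 8 of 8 proximal tubule genes, 4 of 4 thick ascending limb genes and 5 of 5 collecting duct genes passed the filter on dim probes, with 2 of 9, 2 of 6 and 2 of 5 probes higher in MSC kidneys at an unadjusted limma p under 0.05 and none called. Of all 15841 probes tested, 6.51% were higher and 5.2% lower at this p, the shares to set beside each count of markers here. Of the 4 distal convoluted and connecting tubule genes 3 passed and Pvalb did not, and 4 of 4 probes (of Calb1, Slc12a3 and Trpv5) were higher at an unadjusted limma p, with a median of 0.50 and summed signals of 24568 to 45457 on the NP and 44088 to 54714 on the MSC arrays. The part of this shift in the differences given here was not tested. Of the markers of mesenchymal stromal cells 6 of 8 passed, and Thy1 and Itga5, whose proteins (CD90 and CD49e) the paper used to characterise its MSC, did not. They summed to 32393 to 72803 on the NP and 44229 to 76869 on the MSC arrays. Of their 8 probes 2, both of Col1a1, were higher at an unadjusted limma p. NP kidneys, which received no MSC, also gave this signal, so that it does not measure the infused cells. Blood and fat differed between arrays. The summed signal of the red cell markers, of which Hbb, Alas2 and Ahsp passed and Hba-a2 did not, ran from 217586 to 288516 on the NP arrays, and was 28515 on MSC replicate 1, 269548 on MSC replicate 2, 101471 on MSC replicate 3 and 236652 on MSC replicate 4. Of their 5 probes 4 were lower at an unadjusted limma p, with a median difference of -1.01. Sums add intensities that are not log transformed, so that Hbb makes up most of the red cell sum. Its 2 probes had NP means of 17.71 and 14.38 (log2), against 11.88 for Alas2. The summed signal of 9 fat genes, of which 7 passed and Lep and Plin1 did not, was 122028 on MSC replicate 3 and 72565 on MSC replicate 4, against 22041 to 39407 on the NP arrays and 22410 and 35027 on the other MSC arrays. Of their 8 probes 3 were higher at an unadjusted limma p, with a median difference of 1.33.

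Proteins that cannot fold in the endoplasmic reticulum (ER) set off the unfolded protein response. Its sensors in the ER membrane are IRE1 (Ern1), PERK (Eif2ak3) and ATF6. IRE1 splices the mRNA of the transcription factor XBP1, ATF6 is cut to release a transcription factor, and PERK phosphorylates the initiation factor eIF2, which slows translation while the mRNA of ATF4 is translated more. Kinases for amino acid shortage (GCN2), for double-stranded RNA (PKR) and for lack of haem (HRI) phosphorylate the same factor, and this shared arm is the integrated stress response. ATF4 and the factor CHOP (Ddit3) then act on genes such as Asns, Trib3 and Chac1. In the kidney both responses are known from tubular injury by ischaemia. The arrays measure mRNA only, and neither the splicing of Xbp1, nor the cutting of ATF6, nor the phosphorylation of eIF2, nor the amount of any protein was measured.

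The factors act on known DNA elements, so the promoters of the genes are shown first. A window of 250 bases before to 50 after the annotated start was found in the RefSeq table (build GRCr8) for 8 of the 10 genes, with Atf6 and Ern1 not matched. Letters were searched on both strands. The ER stress response element, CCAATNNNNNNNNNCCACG, which ATF6 and XBP1 use, was in 22 of 33469 rat windows of the same length (0.0657%), and among the 8 genes in that of Xbp1. The second form of this element, ATTGGNCCACG, was in 17 windows (0.0508%), and among the 8 genes in that of Herpud1. The core of the element that ATF4 binds with a C/EBP partner, TGATGNAA, was in 1332 windows (3.98%). Among the 8 genes it was in the windows of Trib3, Herpud1 and Chac1. The short core CCACG, which is part of both ER stress elements, was in 10577 windows (31.6%) and in 5 of the 8 genes. The 250 bases before the start of the 4 genes with an element are given on GRCr8, with the fixed letters of the 2 ER stress elements and of the ATF4 core in capitals.
Xbp1 promoter, chr14:84604373-84604622, plus strand: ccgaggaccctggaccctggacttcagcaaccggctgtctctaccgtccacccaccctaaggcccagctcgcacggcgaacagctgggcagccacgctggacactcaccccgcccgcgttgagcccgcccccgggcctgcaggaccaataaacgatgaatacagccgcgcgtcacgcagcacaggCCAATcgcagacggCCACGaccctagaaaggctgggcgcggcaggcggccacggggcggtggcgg
Herpud1 promoter, chr19:10614708-10614957, minus strand: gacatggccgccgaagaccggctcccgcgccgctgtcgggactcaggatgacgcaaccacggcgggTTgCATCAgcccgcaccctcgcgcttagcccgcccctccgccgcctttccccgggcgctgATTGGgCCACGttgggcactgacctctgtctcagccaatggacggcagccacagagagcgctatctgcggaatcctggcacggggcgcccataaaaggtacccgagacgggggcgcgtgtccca
Trib3 promoter, chr3:161275534-161275783, minus strand: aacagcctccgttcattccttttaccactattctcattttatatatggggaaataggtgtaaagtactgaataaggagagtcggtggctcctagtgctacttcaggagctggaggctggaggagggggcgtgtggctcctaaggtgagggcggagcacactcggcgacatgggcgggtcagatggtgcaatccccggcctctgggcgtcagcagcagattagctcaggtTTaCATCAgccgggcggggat
Chac1 promoter, chr3:126795881-126796130, plus strand: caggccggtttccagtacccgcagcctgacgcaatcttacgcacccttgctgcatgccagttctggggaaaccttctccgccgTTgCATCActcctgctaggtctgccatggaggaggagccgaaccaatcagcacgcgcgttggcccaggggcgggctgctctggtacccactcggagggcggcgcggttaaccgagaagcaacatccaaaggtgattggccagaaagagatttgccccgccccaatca

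In Trib3, Herpud1 and Chac1 the ATF4 core lay on the strand opposite to the one printed, with its first printed base at -21, -184 and -167 from the start site. The element of Xbp1 began at -65 and the second form in Herpud1 at -124. These are matches of letters, and no binding was measured.

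**Figure D1:**
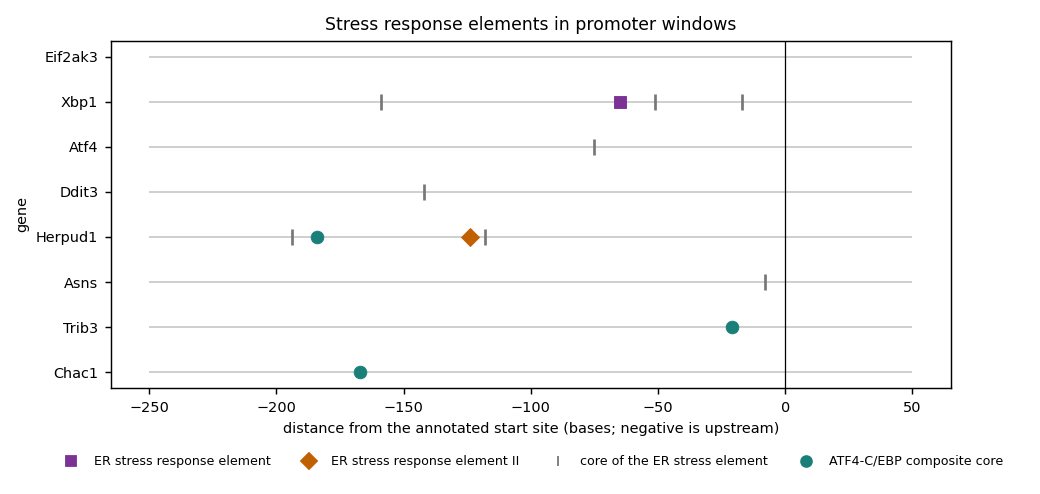
Each line is the promoter window of 1 gene, from 250 bases before to 50 after the annotated start (x axis, distance in bases, negative upstream), and the symbols mark where each element begins. Trib3, Herpud1 and Chac1 hold the ATF4-C/EBP core, Xbp1 the ER stress response element and Herpud1 its second form, while the window of Eif2ak3 holds none of the letters searched.

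The comparison asked whether these mRNAs differed between MSC and NP kidneys. Values are normalised log2 intensities without background subtraction, so that 1 unit is a 2-fold difference, and differences of dim probes are understated. Of the 11 probes 10 passed the filter on dim probes, for 9 genes. A probe was called where limma gave it an FDR under 0.05 and it changed more than 1.5-fold. By this rule 0 of these 10 probes were called, beside 0% of the 15841 probes tested in either direction. At an unadjusted limma p under 0.05, 2 of the 10 were lower in MSC kidneys, Trib3 and Chac1, beside 5.2% of all probes. None of the 10 was higher, beside 6.51% of all probes. Every MSC array lay below every NP array for 1 of the 10, Chac1, beside 2.13% of all probes, and above for 0, beside 3.14%. The median difference of the 10 probes was -0.04, and that of all probes was -0.005. With median scaling they were -0.11 and -0.04, and with 75th percentile scaling -0.07 and 0.0003.

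**Figure D2:**
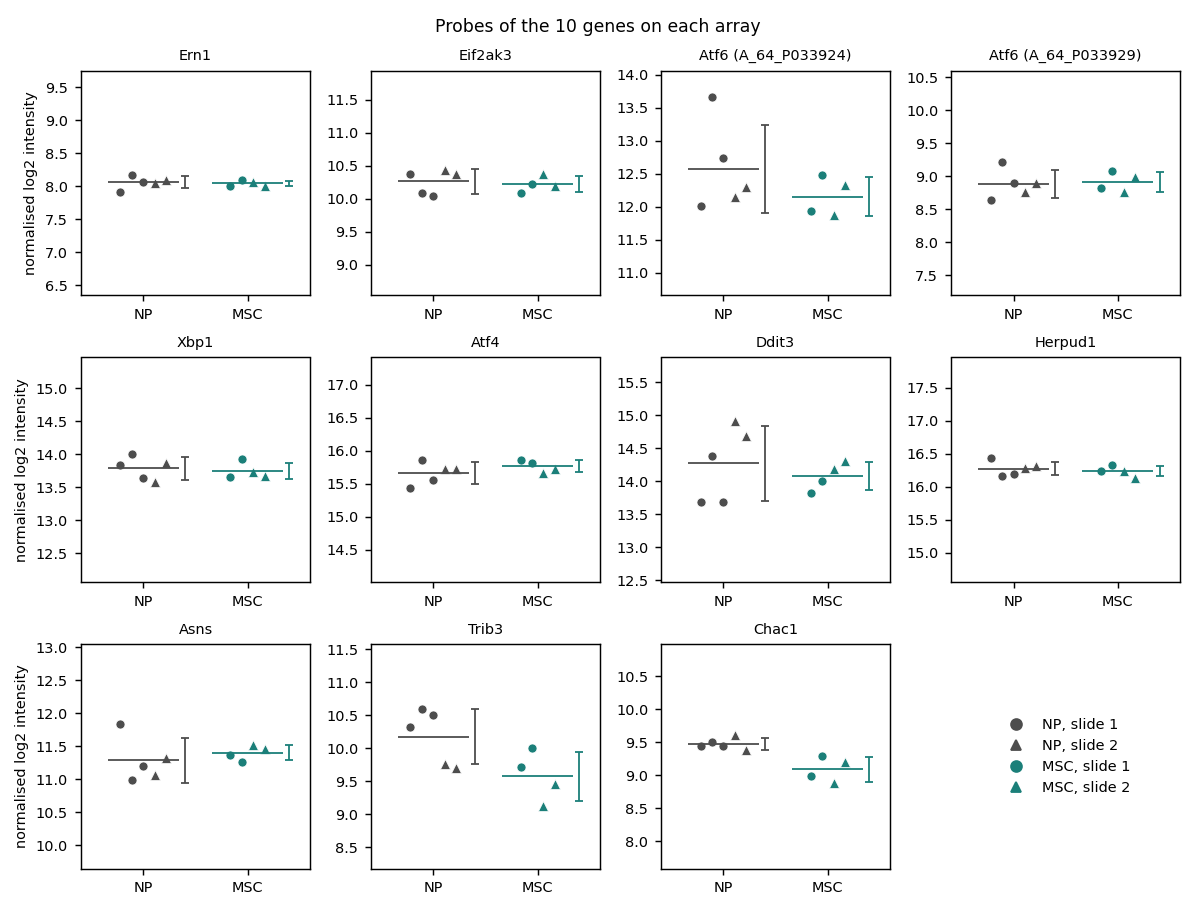
Normalised log2 intensity (y axis, the same length of scale in every panel) of the 11 probes on each of the 5 NP and 4 MSC arrays, with the mean as a line and the SD as a bar at its side, and the slide shown by the symbol. Chac1 is the probe whose groups do not overlap, and Trib3 and Ddit3 sit at different heights on the 2 slides.

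Trib3 and Chac1 stand at the end of the ATF4 and CHOP arm. Trib3 encodes a pseudokinase that binds AKT and ATF4, and it is induced by ATF4 and CHOP together. Chac1 encodes a gamma-glutamylcyclotransferase that breaks down glutathione, and it is also induced through ATF4. Both were lower in MSC kidneys at an unadjusted p under 0.05, and neither passed the FDR. In whole kidney tissue fewer cells of a type and less RNA per cell cannot be told apart, here or in any later difference.

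The Trib3 probe (A_64_P117901, 2 spots per array) starts at base 1076 of transcript NM_144755 and lies at chr3:142664936-142664995 on rn4, minus strand. It is printed because the difference rests on it alone.
Trib3 probe: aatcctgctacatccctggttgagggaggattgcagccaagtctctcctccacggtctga

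Trib3 read 10.32, 10.59, 10.50, 9.76 and 9.70 on NP replicates 1 to 5. It read 9.71, 10.00, 9.12 and 9.46 on MSC replicates 1 to 4. Over all arrays the groups overlapped, since NP replicates 4 and 5 were as low as the higher MSC arrays. The mean was 10.18 ± 0.42 (SD, n = 5) in NP and 9.57 ± 0.37 (SD, n = 4) in MSC kidneys. The difference was -0.60 (SE 0.23, 95% CI -1.12 to -0.08), a 1.52-fold lower signal, with FDR = 0.386 from limma. Permuting the group labels in every way possible (an exact two-sided test) gave p = 0.0714. Each p value printed without another test named is from this exact test. Each count or mention of an unadjusted p refers to the limma p, and the 2 tests can differ on which side of 0.05 a probe falls.

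Trib3 also differed between the slides. On slide 1 the NP mean was 10.47 and the MSC mean 9.86. On slide 2 they were 9.73 and 9.29. Within each slide every MSC array was below every NP array, with differences of -0.62 and -0.44. When limma took account of the slide, the difference was -0.54 (SE 0.11, FDR = 0.286). The difference of slide 2 minus slide 1 was -0.66 (SE 0.11, FDR = 0.0588), while 15 of the 15841 probes (0.0947%) had an FDR under 0.05 for the slide. Without MSC replicates 3 and 4, whose fat signal was high, the difference was -0.32 (FDR = 0.864), with both remaining MSC arrays on slide 1. The part of the fat tissue in the difference was not tested. In the fit that did not take account of the slide, leaving out 1 array also moved the unadjusted limma p over 0.05. This held for any 1 of NP replicates 1, 2 and 3 and MSC replicates 3 and 4. Leaving out arrays was not repeated with the slide in the fit.

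**Figure D3:**
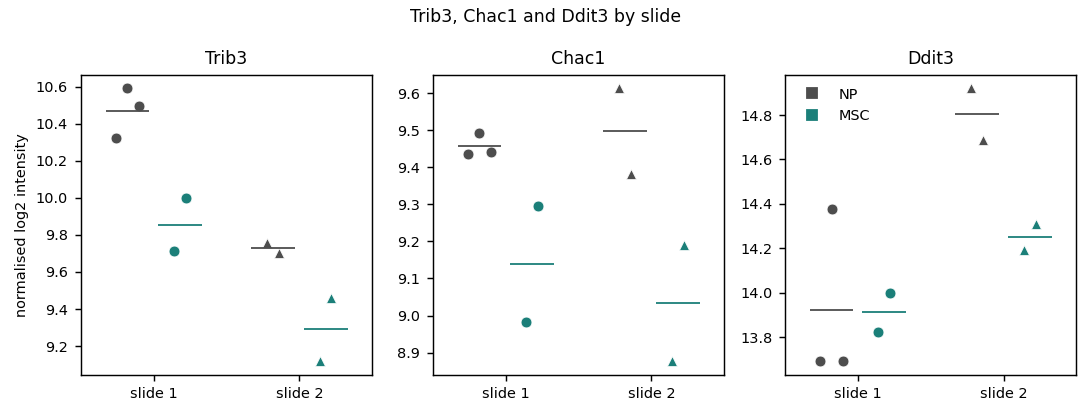
Normalised log2 intensity (y axis, a separate range per panel) of Trib3, Chac1 and Ddit3 on the NP and MSC arrays of each slide, with the mean of each group on a slide as a line. Trib3 and Chac1 are lower on the MSC arrays of both slides, whereas the groups overlap for Ddit3 on slide 1 and NP replicates 4 and 5 are high on slide 2.

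The Chac1 probe (A_64_P112406, 1 spot per array) starts at base 969 of NM_001173437 and lies at chr3:105872719-105872778 on rn4, plus strand. Chac1 read 9.44, 9.49, 9.44, 9.61 and 9.38 on NP replicates 1 to 5. It read 8.98, 9.29, 8.88 and 9.19 on MSC replicates 1 to 4. The groups did not overlap, and all 9 arrays were well above background. The mean was 9.47 ± 0.09 (SD, n = 5) in NP and 9.09 ± 0.19 (SD, n = 4) in MSC kidneys. The difference was -0.39 (SE 0.10, 95% CI -0.61 to -0.17), a 1.31-fold lower signal, with FDR = 0.334 from limma. The exact permutation test gave p = 0.00794, the smallest that these splits can give.

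Chac1 did not follow the slide. Its differences within slides 1 and 2 were -0.32 and -0.46, and slide 2 differed from slide 1 by -0.03 (SE 0.10). After normexp background correction the difference was -0.45. Chac1 was lowest on MSC replicates 1 and 3, the arrays with the low red cell signal. Without them the difference was -0.23 (FDR = 0.781 from limma), with the remaining MSC arrays, at 9.29 and 9.19, still below every NP array. The part of the blood in the difference was not tested.

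**Figure D4:**
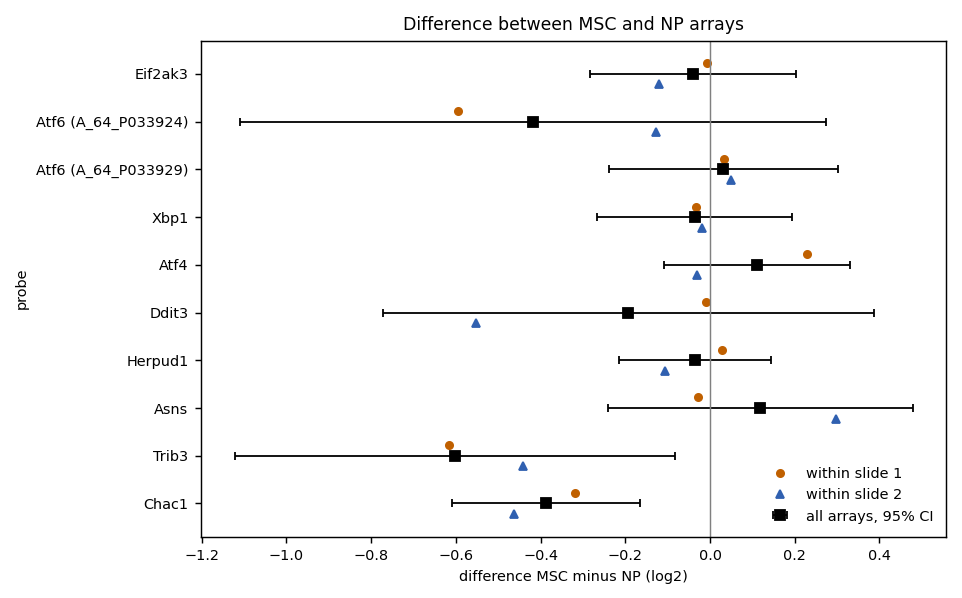
Difference MSC minus NP (x axis, log2) for the 10 probes that passed the filter, with the 95% CI of the limma fit over all 9 arrays as a bar and the difference of means within slides 1 and 2 as coloured symbols. The intervals of Trib3 and Chac1 lie below 0, and those of the other 8 probes include 0.

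Asns and Herpud1, targets that stand beside Trib3 and Chac1, did not pass at an unadjusted p. Asns encodes asparagine synthetase and is a textbook target of ATF4. Its probe (A_44_P480267) read 11.85, 10.99, 11.20, 11.07 and 11.33 on the NP arrays and 11.37, 11.27, 11.53 and 11.46 on the MSC arrays. NP replicate 1 was the highest of all arrays and the groups overlapped. The difference was 0.12 (SE 0.16, 95% CI -0.24 to 0.48, exact p = 0.548). Without NP replicate 1 it was 0.26, with an unadjusted limma p under 0.05 and FDR = 0.251. Without NP replicate 2 it was 0.05, and without NP replicate 4 it was 0.06.

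Herpud1 encodes an ER membrane protein of the degradation machinery with the letters of both kinds of element in its promoter, as printed. Its probe (A_44_P1047924) read 16.43, 16.16, 16.19, 16.28 and 16.31 on the NP arrays and 16.24, 16.33, 16.24 and 16.13 on the MSC arrays. The values overlapped within a narrow range. The difference was -0.04 (SE 0.08) with a 95% CI of -0.22 to 0.14 (exact p = 0.603).

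Of the transcription factors, none differed beyond the spread between arrays. Atf4 encodes the shared factor of the integrated stress response, which is controlled mainly at translation. Its probe (A_42_P620762, 10 spots per array) lies at base 1012 of NM_024403, at chr7:118538840-118538899 on rn4, plus strand.
Atf4 probe: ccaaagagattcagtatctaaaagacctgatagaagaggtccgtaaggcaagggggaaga

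Atf4 read 15.43, 15.86, 15.55, 15.72 and 15.73 on the NP arrays and 15.87, 15.82, 15.66 and 15.73 on the MSC arrays. The groups overlapped. The difference was 0.11 (SE 0.10, 95% CI -0.11 to 0.33, exact p = 0.317), with 0.23 within slide 1 and -0.03 within slide 2. Without NP replicate 1 it was 0.05, and over all settings it ran from 0.03 to 0.18.

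Ddit3 encodes CHOP, the factor downstream of ATF4 that is linked to cell death. Its probe (A_64_P059495) read 13.69, 14.38, 13.69, 14.92 and 14.69 on NP replicates 1 to 5. It read 13.83, 14.00, 14.19 and 14.31 on MSC replicates 1 to 4. NP replicates 4 and 5 were the highest and NP replicates 1 and 3 the lowest of all arrays. The difference was -0.19 (SE 0.26, 95% CI -0.77 to 0.39, exact p = 0.540). It ran from -0.03 without NP replicate 4 to -0.34 without NP replicate 1 or 3 on leaving out 1 array, and was -0.50 with array weights (FDR = 0.309 by limma). Within slide 1 it was -0.01 and within slide 2 it was -0.55, where both MSC arrays lay below both NP arrays. Slide 2 was higher than slide 1 by 0.63 (SE 0.17, FDR = 0.167), the opposite direction to Trib3. The summed signal of 10 immediate early genes was also higher on slide 2, at 404532 and 347186 on NP replicates 4 and 5 and 384659 and 464036 on MSC replicates 3 and 4, against 171242 to 235865 on NP replicates 1 to 3. MSC replicates 1 and 2 had 197893 and 311219. Whether this sum and Ddit3 are linked was not tested. Between the groups, 1 of the 11 immediate early probes, of Fos, was higher in MSC kidneys at an unadjusted limma p. This is 9.09%, beside 6.51% of all probes, and the median difference of the list was 0.35.

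Xbp1 encodes the factor that IRE1 activates by splicing, and its probe (A_64_P011894) starts at base 1778 of NM_001004210. It read 13.83, 14.00, 13.65, 13.58 and 13.86 on the NP arrays and 13.66, 13.92, 13.73 and 13.68 on the MSC arrays. The groups overlapped and the difference was -0.04 (SE 0.10, 95% CI -0.27 to 0.19, exact p = 0.722). Plasma cells are rich in XBP1. Of the 6 plasma and B cell markers on the array 2 passed the filter, with a summed signal of 8745 to 10993 on the NP and 9263 to 12191 on the MSC arrays.

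Among the sensors, Eif2ak3 (PERK) was measured by a probe (A_42_P629500) with 10 spots. It read 10.38, 10.08, 10.03, 10.44 and 10.37 on the NP arrays and 10.09, 10.22, 10.38 and 10.19 on the MSC arrays. The groups overlapped, with a difference of -0.04 (SE 0.11, 95% CI -0.28 to 0.20, exact p = 0.746).

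The 2 probes of Atf6 lie on the same transcript, NM_001107196, at bases 3157 (A_64_P033924) and 1859 (A_64_P033929). The first read 12.02, 13.66, 12.73, 12.15 and 12.31 on the NP arrays and 11.93, 12.49, 11.87 and 12.33 on the MSC arrays. NP replicate 2 stood above the rest, and the groups overlapped. The difference was -0.42 (SE 0.31, 95% CI -1.11 to 0.27, exact p = 0.317), and -0.15 without NP replicate 2. The second read 8.65, 9.21, 8.91, 8.76 and 8.91 on the NP arrays and 8.82, 9.08, 8.77 and 9.0 on the MSC arrays. NP replicate 2 was again the highest. Its difference was 0.03 (SE 0.12, 95% CI -0.24 to 0.30, exact p = 0.810), so that the probes disagreed in sign and neither passed.

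Ern1 (IRE1) was not well above background on any of the 9 arrays. Its probe (A_64_P026463) read between 7.92 and 8.17 on the NP arrays and between 8.0 and 8.09 on the MSC arrays, under the filter's threshold of 8.71 to 8.77. A difference of this probe therefore has no direction.

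By Pearson's r of the log2 intensities over the 9 arrays, the genes most like Trib3 were Cldnd1 (r = 0.982) and Ptma (r = 0.979), with an unnamed probe between them (A_64_P044578, r = 0.980). Those most like Chac1 were Prss36 (r = 0.974), Ybx3 (r = 0.959) and Tex19.2 (r = 0.948). For Ddit3 they were Ncoa7 (r = 0.970), Fxr2 (r = 0.959) and Zfp36l1 (r = 0.956). None of these lists held another of the 10 genes. The arrays share slides and the same 15841 probes were searched each time, so these values are a description.

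The rest of the pathway was read from 5 lists with 116 genes, of which 105 passed the filter with 118 probes. With limma, 0 of these probes were called. At an unadjusted p under 0.05, 12 were higher and 6 lower in MSC kidneys, which is 10.2% and 5.08% of the 118, beside the 6.51% and 5.2% of all probes. Every MSC array was above every NP array for 7 of the 118 probes and below for 3, beside 3.14% and 2.13% of all probes. The median difference was 0.03. These counts moved with the scaling and with the arrays. Median scaling, in place of cyclic loess, gave 0 higher and 3 lower, beside 2.1% and 4% of all probes. Without MSC replicates 1 and 3 there were 2 higher and 4 lower, beside 3.95% and 2.47%, and without MSC replicates 3 and 4 there were 5 higher and 6 lower, beside 3.91% and 2.62%.

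**Figure D5:**
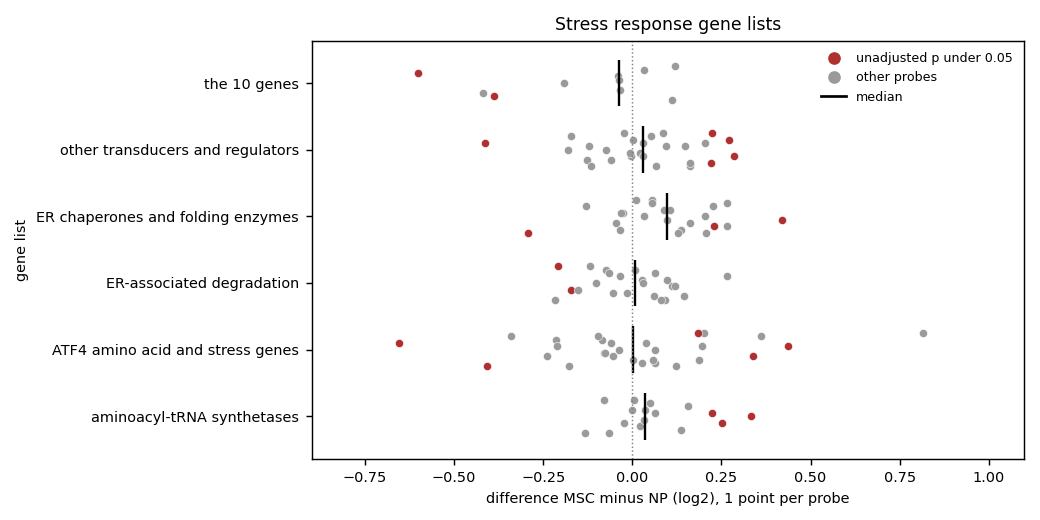
Difference MSC minus NP (x axis, log2) of each probe that passed the filter, 1 point per probe, for the 10 genes and the 5 pathway lists, with the median of each list as a black line and probes at an unadjusted limma p under 0.05 in red. The medians lie between -0.04 and 0.10, and Trib3, at -0.60, and Ddit4, at -0.65, are the lowest points, while Atf3, at 0.82, is the highest.

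Among the other transducers and regulators (27 probes, median 0.03), 4 probes were higher and 1 lower at an unadjusted p, which is 14.8% and 3.7%, beside 6.51% and 5.2% of all probes. Eif2ak1, which encodes the haem-regulated kinase HRI, was the lower one. It read 13.73, 14.26, 14.13, 14.00 and 13.79 on the NP arrays and 13.59, 13.59, 13.47 and 13.63 on the MSC arrays, without overlap. The difference was -0.41 (SE 0.11, exact p = 0.0238, FDR = 0.334 by limma), with -0.45 within slide 1 and -0.35 within slide 2. HRI is known for its high level in red cell precursors, and the red cell signal was low on MSC replicates 1 and 3, where Eif2ak1 read 13.59 and 13.47, and within the NP range on MSC replicates 2 and 4, where it read 13.59 and 13.63. The part of the red cells in the difference was not tested. The higher ones were Atf6b, a relative of ATF6, at 0.27 (exact p = 0.0159), Wfs1, an ER membrane protein that restrains ATF6, at 0.29 (p = 0.0317), Traf2, an adaptor of IRE1, at 0.22 (p = 0.0238), and Eif2b1, a subunit of the exchange factor of eIF2, at 0.22 (p = 0.0238). Their FDR lay between 0.334 and 0.383. Tmbim6, an ER membrane protein that restrains IRE1, differed by 0.09 at 1 probe, where every MSC array was above every NP array (exact p = 0.0159, FDR = 0.603 by limma), and by 0.02 at the other (exact p = 0.905). Eif2b2 differed by 0.03 (exact p = 0.817).

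The ER chaperones and folding enzymes had the highest list median, 0.10, with 17 of 23 probes above 0, against 48.7% of all probes tested. Of the 23 probes 2 were higher and 1 lower at an unadjusted p (8.7% and 4.35%), near the shares of all probes (6.51% and 5.2%). Pdia3, a disulphide isomerase for glycoproteins, differed by 0.42 (exact p = 0.0794, FDR = 0.404 by limma), but by 0.77 within slide 1 and -0.04 within slide 2. Creld2, an ER stress gene, differed by 0.23 (exact p = 0.0317) and Txndc11 by -0.29 (p = 0.0238). Hspa5 encodes BiP, the chaperone that holds the sensors inactive. It read 16.12, 16.42, 15.92, 16.41 and 16.34 on the NP arrays and 16.44, 16.71, 16.47 and 16.43 on the MSC arrays. Every MSC array was above every NP array, by as little as 0.0056 between MSC replicate 4 and NP replicate 2, and the difference was 0.27 (SE 0.12, exact p = 0.0476, FDR = 0.427 by limma). It was 0.42 within slide 1 and 0.07 within slide 2. Fkbp2, a prolyl isomerase of the ER, differed by -0.13 (exact p = 0.302).

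Of the 23 probes for ER-associated degradation, none was higher and 2 were lower at an unadjusted p. These were Syvn1, the ubiquitin ligase HRD1, at -0.21 (exact p = 0.00794) and Nploc4, a cofactor of the ATPase that pulls proteins out of the ER, at -0.17 (p = 0.00794). In both every MSC array lay below every NP array, by as little as 0.0035 for Syvn1 and 0.0056 for Nploc4. Of all probes 6.51% were higher, 5.2% were lower and 2.13% had every MSC array below. Selenok (named Selk in the files) and Rnf5 differed by 0.01 and 0.03. The list median was 0.01.

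The ATF4 genes of amino acid supply and stress (29 probes, median 0.001) had 3 probes higher and 2 lower at an unadjusted limma p (10.3% and 6.9%, beside 6.51% and 5.2% of all probes), with an FDR of 0.334 to 0.409. The higher ones were Slc3a2, the heavy chain shared by amino acid exchangers, at 0.44 (exact p = 0.0159), Slc1a5, a glutamine carrier, at 0.34 (p = 0.0476), and Phgdh, the first enzyme of serine synthesis, at 0.18 (p = 0.0238). Slc3a2 read 14.66, 14.06, 14.49, 14.73 and 14.86 on the NP arrays and 15.04, 14.96, 15.10 and 14.88 on the MSC arrays, without overlap. The lower ones were Ddit4, an inhibitor of mTORC1, at -0.65 (exact p = 0.0317) and Mthfd2, a mitochondrial folate enzyme, at -0.41 (p = 0.0873). The 1 probe of Ddit4 read 13.66, 13.64, 14.41 and 14.48 on MSC replicates 1 to 4, so that the difference was -1.21 within slide 1 and -0.02 within slide 2, and the other probe of the gene differed by -0.22 (exact p = 0.310). The other probes of Mthfd2 differed by -0.21 and -0.08. Psat1, also of serine synthesis, differed by 0.06 (exact p = 0.532). Atf3, a transcription factor of the stress response, was singled out after its values were seen, as the probe of the lists farthest from 0. It differed by 0.82 (SE 0.55, exact p = 0.310, FDR = 0.576 by limma), with overlapping groups and an SD of 1.24 in NP and 0.36 in MSC kidneys.

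The last list held 16 probes for aminoacyl-tRNA synthetases, which ATF4 is also known to control. None of these probes was lower at an unadjusted p, beside 5.2% of all probes, and 3 were higher. These were single probes of Gars1 (0.33, exact p = 0.0159), Nars1 (0.25, p = 0.00794) and Eprs1 (0.22, p = 0.0159), each with every MSC array above every NP array and an FDR between 0.334 and 0.417, beside the 6.51% of all probes that were higher and the 3.14% in which every MSC array was above. The other probes of Gars1 and Nars1 differed by 0.004 and 0.06, and Aars1 by -0.02.

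The genes that hold the ATF4 core in their promoter window did not differ in 1 direction. Of the 10 genes and the 5 lists, 16 genes held it and 15 of these passed the filter with 17 probes, of which 8 were above and 9 below 0, with a median of -0.02. The lowest were Trib3 and Chac1 and the highest Nars1 at 0.25. In the lists the core was in the windows of 7 of 11 aminoacyl-tRNA synthetases and 5 of 25 ATF4 genes of amino acid supply and stress. The ER stress response element was in 9 genes, 6 of them among the 21 chaperones and folding enzymes with a window. Of these 9 genes 8 passed with 8 probes, of which 5 were above and 3 below 0, from Derl3, a factor of ER-associated degradation, at -0.22 to Hspa5 at 0.27, with a median of 0.10. The second form was in 3 genes, Dnajb11 at 0.21, Herpud1 at -0.04 and Hyou1 at -0.05, with a median of -0.04.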

How the data were processed

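The authors scanned 1-colour Agilent rat arrays and deposited, per the file headers, Feature Extraction 10.7.3.1 output with the mean pixel intensity of each spot (probe positions on rn4), and a table of log2 values after cyclic loess. Here the deposited mean intensity was log2 transformed and normalised by cyclic loess in limma 3.58.1 (R 4.3.3), without background subtraction, since the methods name none. Control spots and spots with outlier flags were left out, and spots of 1 probe were averaged. A probe had to exceed 1.1 times the 95th percentile of the log2 negative controls on at least 4 arrays, a reading of the methods' filter (15841 of 30367 probes). Against the authors' log2 table, r per array was 0.99990 to 0.99997. MSC and NP arrays were compared per probe with limma, FDR by Benjamini-Hochberg over all probes kept, with calls as defined in the results. Exact two-sided permutation tests over splits of the arrays were added for single probes, unadjusted.

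Replicates are separate kidneys, and their number limits the precision. The fit was checked on simulated arrays with known changes and no slide effect. It called 86% of the 2-fold and 100% of the 4-fold changes, with 8 false calls. Smaller changes, such as those described here, were not simulated. The genes, lists and tests were chosen with earlier results of these data known. In each list the genes with the smallest unadjusted p per direction (up to 4) and the 2 brightest are named, and for the genes the 3 most alike by Pearson's r. No column with a value per sample was left unused (0). The alternatives took other intensities, normalisations, filters, probe summaries, variance models and blocks, left out each array, and used the deposited values. Leaving out pairs of MSC arrays was added after seeing the data. Of the marker lists not described in the results, podocyte and macrophage and leukocyte had 0 probes at an unadjusted limma p under 0.05 in either direction. The injured tubule list had 1 of 7 higher. Of all probes 6.51% were higher and 5.2% lower.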

Additional observations from a re-analysis of the deposited data

How the results depend on the processing

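No probe of the 10 genes or of the 5 lists was called under any setting run. Over the 10 probes that passed the filter, 235 of 247 values under other settings kept the direction of the difference and 12 reversed. Trib3 stayed lower, from -0.77 (processed signal) to -0.31 (array weights), with an FDR of 0.286 to 0.864, and Chac1 from -0.54 (processed signal) to -0.23 (without MSC replicates 1 and 3), with an FDR of 0.133 to 0.781, in all 25 settings. Over all settings Asns ran from 0.03 to 0.26, Atf4 from 0.03 to 0.18, Ddit3 from -0.50 to -0.03 and the first Atf6 probe from -0.56 to -0.15. The number of the 10 genes' probes lower at an unadjusted p was 2 (beside 5.2% of all probes), but 0 with 75th percentile scaling (3.03%), 1 with array weights (8.32%), 3 with median scaling (4%; the Atf6 probe A_64_P033924 added), 0 without MSC replicates 1 and 3 (2.47%), 1 without MSC replicates 3 and 4 (2.62%), and 1 to 2 on leaving out 1 array (3.35% to 9.11%). The number higher was 0 to 1 on leaving out 1 array (4.88% to 7.3%). In the lists, median scaling gave 0 higher and 3 lower (2.1% and 4% of all probes), leaving out MSC replicates 1 and 3 gave 2 higher (3.95%) and MSC replicates 3 and 4 gave 5 (3.91%), and leaving out 1 array gave 6 to 13 higher. Array weights called 2 probes of all 15841, Calb1 and Tmem52b, chosen for mention after their values were seen. Without array weights, the comparison given in the results called neither, with FDR = 0.237 by limma for Calb1. The paper reports both genes as significantly higher in MSC kidneys, so that this comparison departs from the published result. The causes of this departure and of the changes between settings were not tested.

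The values that reversed were close to 0. Eif2ak3 was 0.0135 with the processed signal and ran from -0.0970 to 0.00373 on leaving out 1 array. Xbp1 was 0.0220 with array weights, 0.0145 without MSC replicates 1 and 3 and 0.00694 without MSC replicates 3 and 4, and ran from -0.0944 to 0.0170 on leaving out 1 array. Herpud1 was 0.0137 without MSC replicates 3 and 4 and ran from -0.0680 to 0.00211. The second Atf6 probe ran from -0.0284 to 0.113. Ern1, below background on all 9 arrays so that its sign has no meaning, was 0.00289 with 75th percentile scaling and ran from -0.0556 to 0.00761. No scaling moved the median of all probes by over 0.1, the most being to -0.04 with median scaling.

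The replicate numbers do not pair the arrays: deviations from the group means of arrays with the same number correlated at 0.198, 0.320, -0.351 and 0.048 across probes. With a replicate block Trib3 was -0.72 (FDR = 0.396) and Chac1 -0.41 (FDR = 0.396), 2 probes of the 10 genes were again lower, and no call changed. Dim probes limit the rest: for Ern1 the arrays give no difference above background.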
